A study of Homo sapiens with 6 samples.

Results

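The genes described here encode 57 proteins of the centromere, the kinetochore, the spindle checkpoint and mitotic entry. They were chosen by symbol from a list of such genes. All 57 were present among 20030 gene names and passed the filter on low counts, which left 12508 names to test. The RNA came from KGN, an established human granulosa-like tumour cell line, and was sequenced from mRNA libraries made with the SMARTER kit from 1.0 µg of total RNA. All cells were transfected with an siRNA and harvested after 48 h. In 3 libraries it was the negative control siRNA (genotype labelled WT), and in 3 it targeted the long noncoding RNA SNHG5 (genotype labelled SNHG5 knockdown). The comparison asks how transcripts of the mitotic machinery differed between them. As the labels do not say that replicates were separate cultures, the p-values reflect the variation among these libraries alone, which may be technical. The level of SNHG5 was not analysed here, and the extent of knockdown is therefore not given.

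As background, a chromosome is held at mitosis by its kinetochore, which is built in layers. Nucleosomes with the histone variant CENP-A mark the centromere, a constitutive network of CENP proteins (CCAN) sits on them, and the outer KMN network grips the microtubules of the spindle. Kinetochores without microtubules feed the spindle assembly checkpoint, which holds back CDC20, the activator of the anaphase-promoting complex, until every chromosome is attached. CDK1 with its cyclins starts mitosis, and Aurora and Polo kinases correct attachments and drive division. Many of these genes are transcribed mainly in G2 and M phase, through promoters with a CHR element and CCAAT boxes bound by MuvB complexes and NF-Y. Genes of DNA replication more often carry E2F sites. In granulosa cells, division of this kind accompanies growth of the follicle.

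The proximal promoters of 6 members are shown because 5 of them (CDC20, PLK1, MKI67, CCNB2 and PRC1) hold both a CHR and a CCAAT box and yet moved in opposite directions. CDC25A is set beside them for its E2F match. Each is the 130 bases before the RefSeq start (GRCh38.p14), 5′ to 3′ on the gene's strand, and capitals mark the motifs searched on both strands. These were the CHR (TTTGAA or TTCGAA), the CCAAT box (CCAAT) and E2F sites (TTTCCCGC, TTTCGCGC, TTTGCCGC or TTTGGCGC).
CDC20 (lower, chr1:43358851-43358980, plus strand): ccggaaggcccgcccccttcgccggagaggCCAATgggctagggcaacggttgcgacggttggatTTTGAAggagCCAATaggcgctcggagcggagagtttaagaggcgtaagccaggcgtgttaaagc
PLK1 (lower, chr16:23678759-23678888, plus strand): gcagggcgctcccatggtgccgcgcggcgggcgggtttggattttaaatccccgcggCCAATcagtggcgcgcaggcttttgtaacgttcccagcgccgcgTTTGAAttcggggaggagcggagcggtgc
MKI67 (lower, chr10:128126424-128126553, minus strand): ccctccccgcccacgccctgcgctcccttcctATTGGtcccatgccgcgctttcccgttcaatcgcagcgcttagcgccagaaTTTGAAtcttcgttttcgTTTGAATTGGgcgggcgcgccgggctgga
CCNB2 (higher, chr15:59105016-59105145, plus strand): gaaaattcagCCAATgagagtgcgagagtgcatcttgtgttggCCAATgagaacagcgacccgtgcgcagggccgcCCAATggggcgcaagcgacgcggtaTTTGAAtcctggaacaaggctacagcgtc
PRC1 (higher, chr15:90994536-90994665, minus strand): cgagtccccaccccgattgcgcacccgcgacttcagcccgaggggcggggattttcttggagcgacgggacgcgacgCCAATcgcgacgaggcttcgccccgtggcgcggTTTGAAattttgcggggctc
CDC25A (higher, chr3:48188418-48188547, minus strand): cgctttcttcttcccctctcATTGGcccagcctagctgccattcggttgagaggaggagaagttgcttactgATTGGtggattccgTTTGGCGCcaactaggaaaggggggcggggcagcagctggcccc

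In PLK1 and CCNB2 the CHR starts 29 bases before the RefSeq start, and in PRC1 20 bases before it, with a CCAAT box further upstream in each. MKI67 holds 2 CHR matches, the nearer of which overlaps a CCAAT match. CDC25A, the phosphatase gene that acts from G1/S onward, holds an E2F match and 2 CCAAT matches but no CHR match in this window. The whole RefSeq window runs from 250 bases before to 50 bases after a start, and 47 members had 60 of them. The members without one were TTK, CENPM, CENPL, BUB3, BIRC5, FOXM1, CENPH, AURKA, UBE2C and TPX2. A CHR match lay in 51.7% of the members' windows, against 12.1% of 14646 windows of all genes tested and 16.4% of all 35116 windows. A CCAAT match lay in 70.0% of the members' windows and 34.7% of those of genes tested, and 2 or more lay in 46.7% and 12%. An E2F match lay in 13.3% and 4.84%. Matches of different kinds overlapped 2 times in the members' windows. Split by the direction of the RNA difference, the CHR was in 53.3% of 30 windows of members that rose and in 55.6% of 9 windows of members that fell. Of those 9 windows 4 belong to CDC25B alone, and only 1 of its 4 holds a CHR. Counted by gene, the CHR was in 14 of 25 members that rose and in 5 of 6 that fell. Among members not called it was in 9 of 16. E2F matches were in 6 of the 30 windows of members that rose and in 0 of the 9 windows of those that fell. By gene these were 5 of 25 and 0 of 6, beside 1 of 16 members not called. These shares describe letters in a window, not bound sites.

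**Figure D1:**
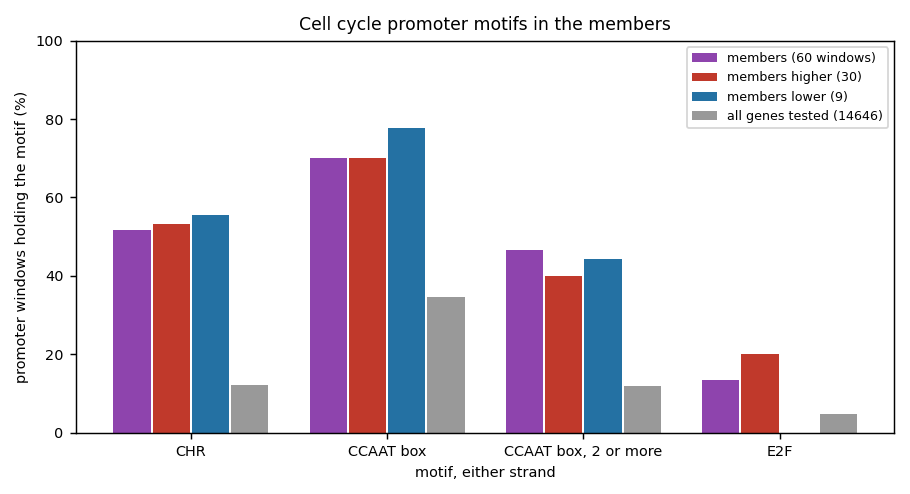
Share of promoter windows (percent, y axis) that hold each motif on either strand (x axis), for all 60 windows of members, the 30 windows of members called higher, the 9 of members called lower, and the 14646 of all genes tested. The CHR bars of members that rose and fell, at 53.3% and 55.6%, stand above the 12.1% of all genes tested; 4 of the 9 windows of members that fell belong to CDC25B, and by gene the counts are 14 of 25 and 5 of 6.

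With SNHG5 siRNA, 29 of the 57 genes rose, 8 fell and 20 did not pass the test. A gene passed, or was called, at an adjusted p under 0.05 (edgeR's quasi-likelihood F-test, adjusted by Benjamini and Hochberg's method over all genes tested), and a log2 fold change is SNHG5 siRNA minus control siRNA. The background was high: 40.2% of all genes tested were called, 20.3% higher and 19.9% lower. Against that, 50.9% of the members were called higher and 14.0% lower. The median log2 fold change was 0.18 over the members and -0.01 over all genes tested, and single members ranged from -0.40 to 0.87. By role group, rises were most frequent in the inner kinetochore, where 11 of 13 members rose and 0 fell. In the outer kinetochore 5 of 9 rose and 0 fell, and in mitotic entry 5 of 9 rose as well. Inner and outer kinetochore together gave 16 higher and 0 lower of 22 (0 lower under each alternative too). The other 35 members gave 13 higher and 8 lower. In bulk libraries, a different share of cells in G2 or M phase and a different amount of RNA per cell cannot be told apart.

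**Figure D2:**
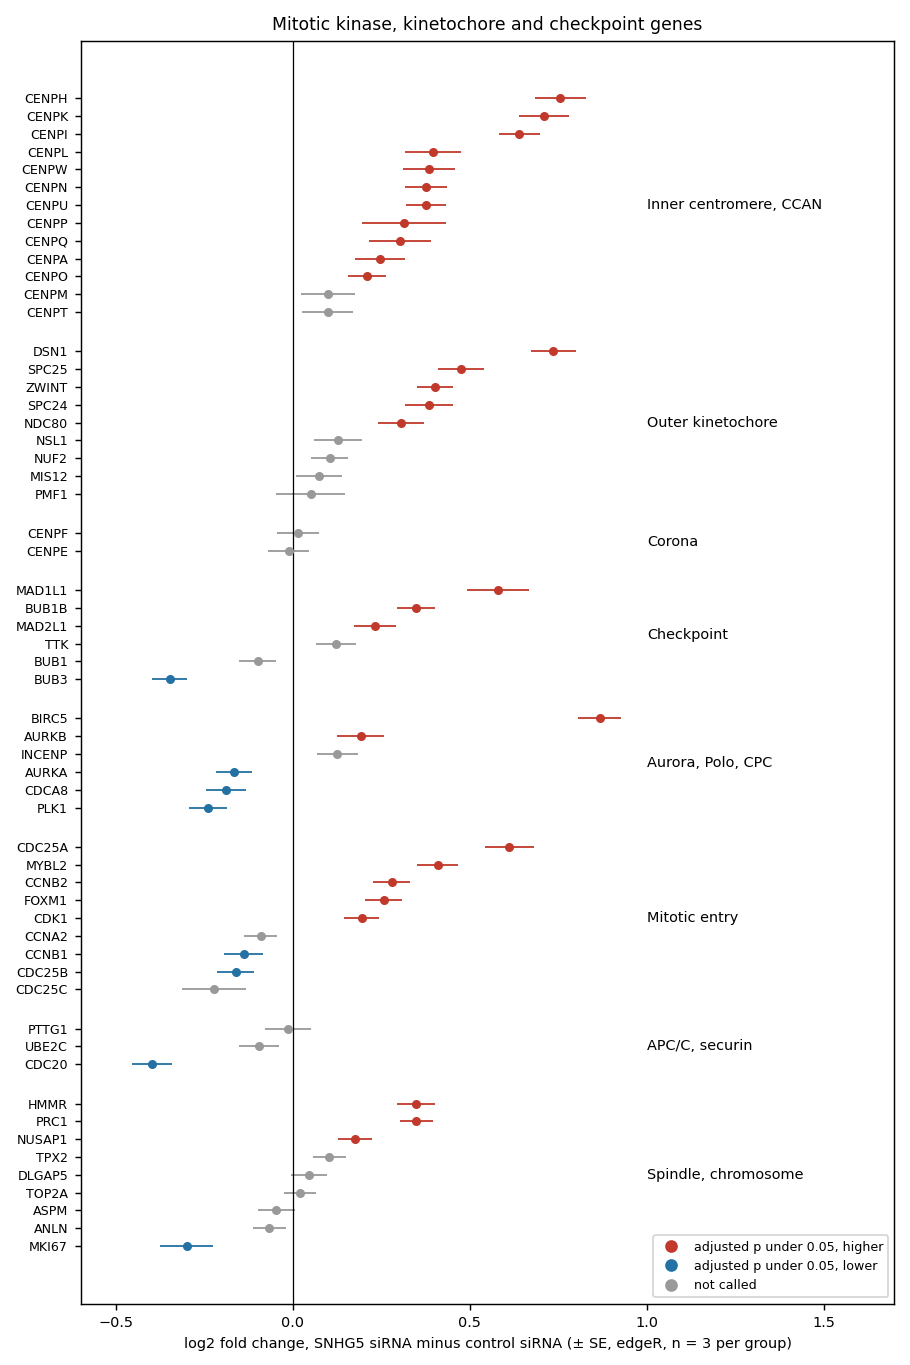
Log2 fold change (x axis, SNHG5 siRNA minus control siRNA, ± SE from edgeR, 3 libraries per group) of the 57 genes (y axis), in role groups and ordered within each. All 22 inner and outer kinetochore genes lie to the right of 0, and the Aurora, Polo and mitotic entry genes lie on both sides. The 3 genes of anaphase-promoting complex activation and securin lie to the left of 0.

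Levels below are CPM, counts scaled to library size by TMM, in replicates 1, 2 and 3. CPM compare 1 gene between libraries and do not compare genes, for which the authors' FPKM, scaled to gene length, are used. The CPM ranges of control and SNHG5 siRNA were apart in 41 of the 57 genes (71.9%), and in 49.8% of all genes tested. For any 1 such gene an exact 2-sided permutation test gives p = 0.1, the smallest that 3 against 3 libraries allow. Of these 41 genes, 34 were called and 7 were not.

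Total counts ranged from 18232634 to 22088913 per library. SNHG5 siRNA replicate 2 stood apart: against its replicates, chi-square over degrees of freedom was 8.66 and 8.89, where the other pairs within groups gave 1.92 to 4.42. Its deviation from the group mean fell with transcript length across genes (Spearman -0.494, against -0.25 to 0.396 in the other libraries). Across the 57 members, which share these libraries, a related measure was used, its log2 ratio to the mean CPM of replicates 1 and 3. The Spearman correlation of that ratio with length was -0.433. Without it 44.4% of all genes were called, and 30 members rose and 8 fell. Of 15 granulosa markers 9 were tested; GATA4, INHBA, NR5A1 and FOXL2 were present, whereas AMHR2, INHA, CYP11A1 and CYP19A1 were under 1 CPM. With SNHG5 siRNA the granulosa markers FSHR (-1.15), NR5A2 (-0.93) and GATA4 (-0.37 on the log2 scale) fell, and the sum of the list went from 262.4 to 270.1 CPM to 241.9 to 252.4 CPM. Among markers of other cell types, CYP17A1, INSL3, LUM, CDH5, CD3E and HBB had 0 counts in every library. LHCGR, listed with theca and stroma though not confined to them, also had 0 counts in every library. The summed CPM of the 7 theca and stroma markers, mostly PDGFRB, was 104.7 to 108.7 with control siRNA and 66.0 to 74.2 with SNHG5 siRNA. The 5 endothelial markers, mostly KDR, summed to 33.3 to 38.0 and 16.8 to 19.4, and the 6 epithelial markers, mostly KRT18, to 3354 to 3486 and 2483 to 2755; KRT18 fell (-0.43) and KRT8 rose (0.17). CD68, a macrophage marker, had 22.3 ± 2.46 CPM with control siRNA and 26.0 ± 1.04 with SNHG5 siRNA (SD, n = 3). These groups did not overlap, but CD68 was not called (edgeR's adjusted p = 0.0508). PTPRC, the other blood marker tested, went the other way, at 2.35 ± 0.39 and 1.91 ± 0.13 CPM. Its groups overlapped, and edgeR's adjusted p was 0.263. The blood marker CD14 was under 1 CPM in every library. The part of these differences in the results was not tested.

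The inner kinetochore had the highest share of rises among the role groups: 11 of its 13 genes (84.6%) rose and 0 fell. Its median log2 fold change was 0.38, with a range from 0.10 to 0.76. CENPH, CENPI and CENPK, whose products form a subcomplex of the CCAN that helps seat CENP-A and recruits the outer kinetochore, rose most. CENPH (chromosome 5, 69189548 to 69210357, plus strand, GRCh38, GENCODE v29) had 29.4, 29.5 and 35.0 CPM with control siRNA and 51.8, 53.6 and 53.1 CPM after SNHG5 siRNA. Its lowest SNHG5 siRNA library was well above its highest control. The log2 fold change was 0.76 ± 0.07 (SE), a 1.69-fold rise, with an adjusted p of 1.23e-07. CENPK had 42.0, 39.2 and 47.3 CPM and 70.9, 73.3 and 65.7 CPM, a rise of 0.71 ± 0.07 on the log2 scale (adjusted p = 2.22e-07). CENPI had 35.9, 36.9 and 37.2 CPM and 57.5, 56.6 and 57.2 CPM, a spread of about 1 CPM within each group, and a log2 fold change of 0.64 ± 0.06. The partner subunit gene CENPM was the exception in this subcomplex, at 42.2, 45.2 and 40.2 CPM and 43.2, 51.3 and 42.4 CPM. Its groups overlapped, and at 0.10 (adjusted p = 0.311) it missed the threshold. Leaving out SNHG5 siRNA replicate 2, its highest library, gave 0.01.

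The other CCAN genes rose by less. CENPL and CENPN, whose products bind each other and recognise the CENP-A nucleosome, had log2 fold changes of 0.40 ± 0.08 and 0.38 ± 0.06. CENPL went from 20.2, 19.7 and 19.8 CPM to 27.9, 24.5 and 26.1 CPM. CENPU (0.38), CENPQ (0.30), CENPP (0.31) and CENPO (0.21), members of the subcomplex that docks Polo kinase, all rose. CENPP was the least secure of them, at 5.37, 5.42 and 5.22 CPM and 6.50, 6.79 and 6.64 CPM, since its call (adjusted p = 0.0420) ended without any 1 of the 6 libraries, with adjusted p from 0.0788 to 0.0895, and under 6 other alternatives (0.0519 to 0.151). The groups of CENPQ overlapped, at 21.4, 22.7 and 25.6 CPM and 30.1, 30.2 and 25.5 CPM, and without control siRNA replicate 1 its adjusted p was 0.0597. Of the histone-fold pair that bridges DNA to the outer kinetochore, CENPW rose by 0.38 ± 0.07, from 28.7 ± 1.65 to 37.5 ± 2.23 CPM (SD, n = 3), and CENPT, at 32.8 ± 2.22 and 35.1 ± 1.40 CPM, had 0.10 and did not pass (adjusted p = 0.298).

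CENPA, the centromeric histone H3 variant that the whole structure rests on, had 28.8, 27.4 and 29.7 CPM under control siRNA and 34.2, 34.7 and 32.7 CPM under SNHG5 siRNA. The groups did not overlap, and the rise was 0.25 ± 0.07 (adjusted p = 0.00941). It was 0.21 with an adjusted p of 0.0578 without control siRNA replicate 2. In GENCODE v29, 42.7% of the exonic bases of CENPP, 31.4% of those of CENPO and 22.8% of those of CENPN also lie in exons of genes on the opposite strand. Among other members this share was 19.6% in CENPT, 15.9% in FOXM1, 12.5% in PLK1 and 11.7% in CENPU. Whether the counting used strand is not given in the sources used here, so reads of these genes and their neighbours may not be told apart.

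At the outer kinetochore 5 of 9 genes rose and 0 fell, with a median of 0.31. DSN1, a subunit of the MIS12 complex that links the CCAN to the microtubule-binding proteins (chromosome 20, 36751791 to 36773818, minus strand), rose most. It had 36.8, 35.9 and 40.0 CPM with control siRNA and 61.5, 66.4 and 59.7 CPM with SNHG5 siRNA, a log2 fold change of 0.74 ± 0.06 (adjusted p = 5.06e-08). Its partners in the same complex were not called: MIS12 had 0.07 (adjusted p = 0.392), NSL1 0.13 (0.145) and PMF1 0.05 (0.722). PMF1 was the 1 inner or outer kinetochore gene whose sign changed under an alternative, to -0.02 without control siRNA replicate 2. It shares 23.3% of its exonic bases with the read-through gene PMF1-BGLAP, so its counts are uncertain.

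In the NDC80 complex, the rod that holds the microtubule, both subunits at the centromere end rose. SPC25 had 31.9, 33.1 and 34.9 CPM and 46.9, 47.6 and 44.2 CPM, for a log2 fold change of 0.48 ± 0.07 (adjusted p = 1.27e-05). SPC24 had 45.3, 50.1 and 41.5 CPM and 59.4, 62.4 and 57.1 CPM, and 0.38 ± 0.07. At the microtubule end, NDC80 itself rose from 70.8 ± 5.18 to 87.5 ± 5.45 CPM (0.31 ± 0.06). Its dimer partner NUF2 had 101, 97.3 and 99.9 CPM and 105, 107 and 108 CPM, groups that did not overlap, with 0.10 and an adjusted p of 0.121. ZWINT, which ties the KMN network to checkpoint proteins, had 106, 113 and 107 CPM and 141, 145 and 144 CPM, a rise of 0.40 ± 0.05 (adjusted p = 5.85e-06). All 5 called genes of this group were also called without each library in turn.

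The fibrous corona, the outermost layer, gave no call. CENPE, a kinesin that carries chromosomes to the spindle equator, had 127, 117 and 117 CPM and 112, 125 and 122 CPM, for a log2 fold change of -0.01 ± 0.06. CENPF, a very large coiled-coil protein of the corona, had 411, 381 and 355 CPM and 358, 388 and 412 CPM, and 0.01 ± 0.06. In both genes the groups overlapped over most of their range, and the sign changed between alternatives.

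**Figure D3:**
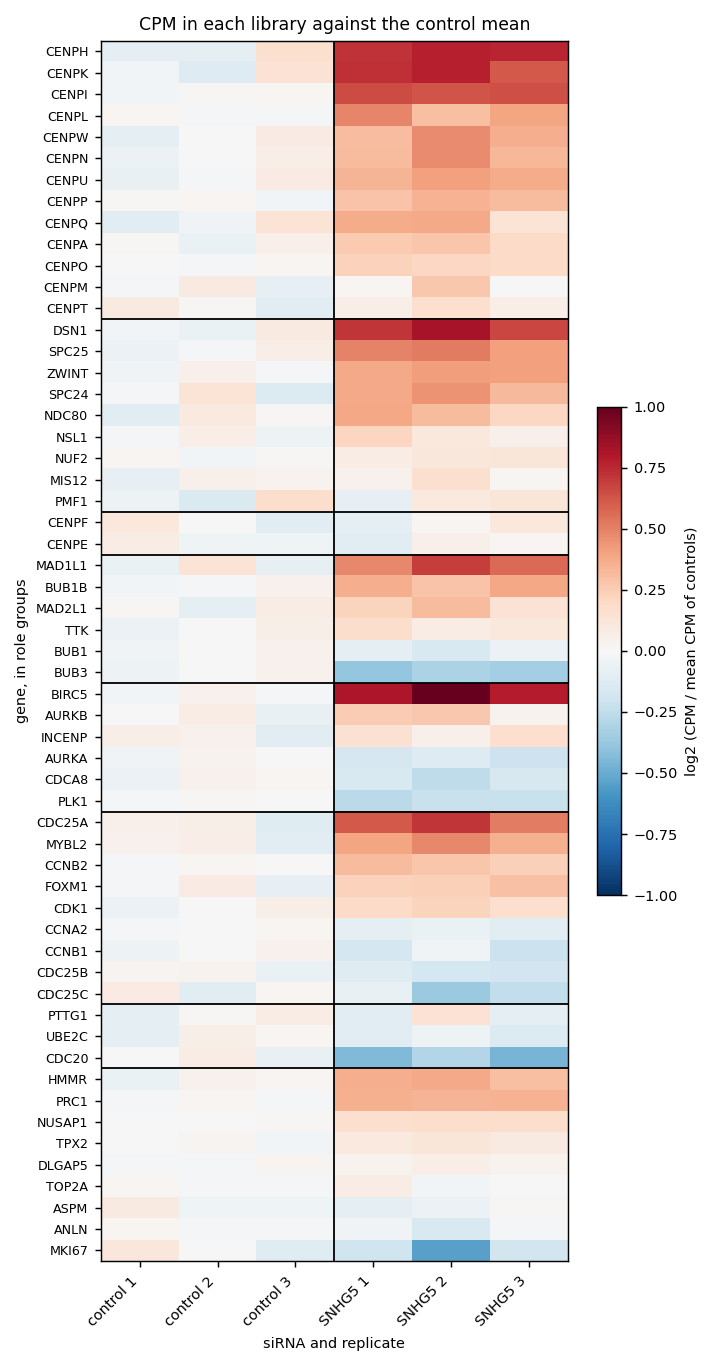
CPM of each of the 57 genes (y axis, role groups parted by lines) in each of the 6 libraries (x axis), as the log2 ratio to the mean of the 3 controls (color scale from -1 to 1). The 3 SNHG5 siRNA columns look alike in many kinetochore genes. Among the exceptions, CENPM is higher in replicate 2 (51.3 CPM against 43.2 and 42.4) and CENPQ lower in replicate 3 (25.5 CPM against 30.1 and 30.2). Replicate 2 also stands apart in MKI67, at 544 CPM against 690.0 and 697.

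Checkpoint genes moved in both directions: 3 of 6 rose, 1 fell and 2 did not pass. MAD1L1, which anchors MAD2 at unattached kinetochores, had 16.5, 18.96 and 16.2 CPM with control siRNA and 24.0, 27.9 and 25.4 CPM with SNHG5 siRNA. That was a rise of 0.58 ± 0.09 (adjusted p = 3.67e-05). MAD2L1, which encodes MAD2, had 104, 97.1 and 109 CPM and 121, 129 and 114 CPM, a smaller rise of 0.23 ± 0.06 with no overlap. BUB1B, which encodes BUBR1, a part of the complex that inhibits CDC20, had 89.0, 89.2 and 93.4 CPM and 117, 111 and 118 CPM, and 0.35 ± 0.05. The read-through gene BUB1B-PAK6 shares 10.2% of the exonic bases of BUB1B.

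BUB3, the adaptor that brings BUB1 and BUBR1 to the kinetochore (chromosome 10, 123154277 to 123170467, plus strand), went the other way. It had 332, 345 and 354 CPM with control siRNA and 262, 275 and 271 CPM with SNHG5 siRNA, a log2 fold change of -0.35 ± 0.05 (adjusted p = 1.42e-05), and it was called lower under every alternative. The kinase gene BUB1 had 117, 119 and 123 CPM and 112, 108 and 115 CPM, with -0.10 and an adjusted p of 0.141, and it passed under 3 of 17 alternatives, with adjusted p down to 0.0151. TTK, the kinase that starts checkpoint signalling, had 0.12 (adjusted p = 0.0917), and 0.15 (0.0250) without SNHG5 siRNA replicate 2.

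BIRC5 rose most of all 57 genes. It encodes survivin, the subunit that brings the chromosomal passenger complex to the centromere, and lies on chromosome 17 from 78214186 to 78225636 on the plus strand. It had 105, 109.8 and 106 CPM with control siRNA and 186, 214 and 184 CPM with SNHG5 siRNA, a log2 fold change of 0.87 ± 0.06 or 1.82-fold (adjusted p = 2.28e-09). Replicate 2 was the highest, and without it the log2 fold change was 0.80. The other genes of the complex differed by less. AURKB, its kinase, had 61.0, 64.5 and 58.1 CPM and 73.0, 73.8 and 62.9 CPM, groups that overlapped, and rose by 0.19 ± 0.07 (adjusted p = 0.0298). Its adjusted p was 0.0777 without control siRNA replicate 1, 0.132 without control siRNA replicate 3, 0.121 without SNHG5 siRNA replicate 1 and 0.0886 with upper quartile scaling. CDCA8, which encodes borealin, had 90.0, 96.6 and 94.8 CPM and 84.2, 78.5 and 84.1 CPM and fell by 0.19 on the log2 scale (SE 0.06, adjusted p = 0.0116; 0.0638 without control siRNA replicate 2). INCENP, the scaffold, had 0.13 (adjusted p = 0.0942), which missed the threshold, and 0.16 (0.00924) when SNHG5 siRNA replicate 2 was left out.

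PLK1 and AURKA, the kinases that mature centrosomes and build the spindle, both fell. PLK1 (chromosome 16, 23677656 to 23690367, plus strand) had 80.7, 82.3 and 81.5 CPM with control siRNA and 67.5, 69.9 and 69.8 CPM with SNHG5 siRNA. The groups were tight and apart, and the log2 fold change was -0.24 ± 0.05 (adjusted p = 0.00161), called lower under every alternative. AURKA had 129, 136 and 133 CPM and 118, 122 and 115 CPM, for a log2 fold change of -0.17 ± 0.05 (adjusted p = 0.0156). Its call ended without control siRNA replicate 2 (adjusted p = 0.0824) and without SNHG5 siRNA replicate 1 (0.0569) or 3 (0.0751).

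**Figure D4:**
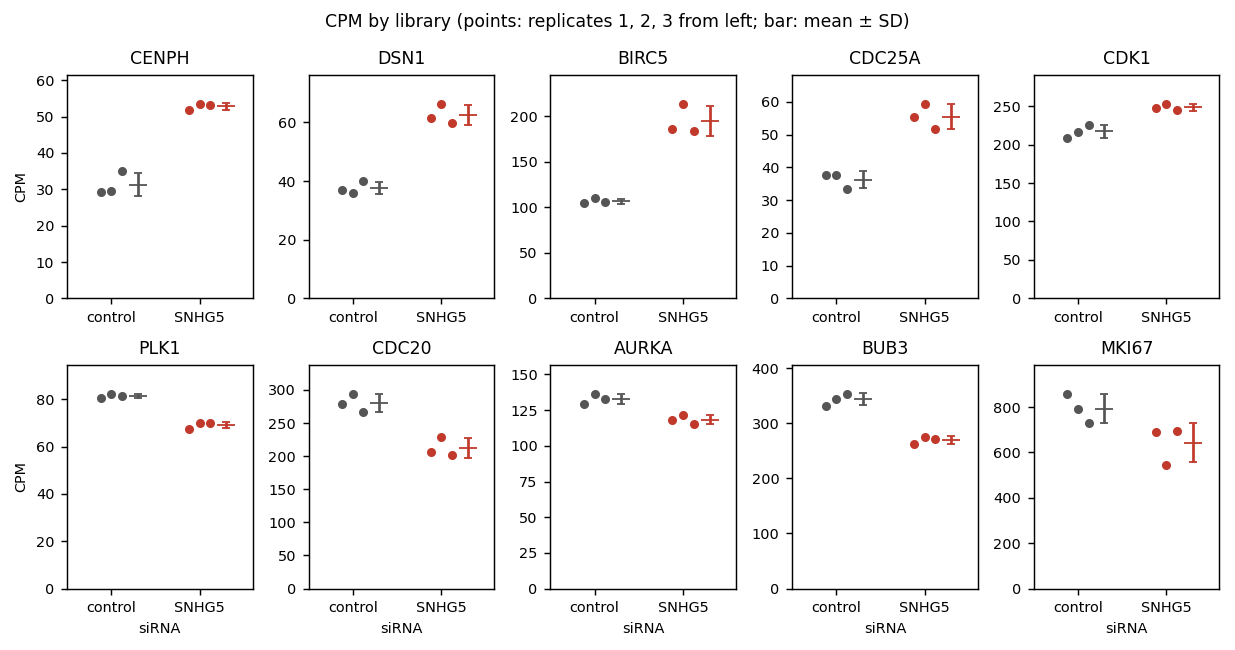
CPM (y axis, from 0) of 10 genes in each library (points) by siRNA (x axis), with the mean ± SD of 3 libraries beside them. The 10 genes were picked for display, and in each the control and SNHG5 siRNA points do not overlap. The same holds for 41 of the 57 members and for 49.8% of all genes tested. The top row (CENPH, DSN1, BIRC5, CDC25A, CDK1) is higher and the bottom row (PLK1, CDC20, AURKA, BUB3, MKI67) lower after SNHG5 siRNA.

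Among genes of mitotic entry 5 of 9 rose, 2 fell and 2 did not pass. CDC25A, the phosphatase that activates CDKs from G1/S onward (chromosome 3, 48157146 to 48188402, minus strand), had 37.7, 37.8 and 33.4 CPM and 55.4, 59.4 and 51.7 CPM. It rose by 0.61 ± 0.07, or 1.53-fold (adjusted p = 1.20e-06). Its relatives of G2 and M were on the other side of 0. CDC25B had 149, 150.2 and 140.0 CPM and 135, 129.8 and 128 CPM and fell by 0.16 on the log2 scale (adjusted p = 0.0193). That p was 0.0841 and 0.0919 without control siRNA replicates 1 and 2, and 0.0814 without SNHG5 siRNA replicate 3. With the FPKM and 1 added it had -0.06 (adjusted p = 0.412), and with the GC trend removed -0.08 (0.140). CDC25C, with 22.03, 19.4 and 21.2 CPM and 19.9, 16.1 and 17.6 CPM, had -0.22 and an adjusted p of 0.0580, and it passed under 5 of 17 alternatives, with adjusted p down to 0.0181.

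The 2 B-type cyclins differed in sign. CCNB2 had 93.4, 95.9 and 94.4 CPM with control siRNA and 118, 115 and 112 CPM with SNHG5 siRNA, a rise of 0.28 ± 0.05 (adjusted p = 3.14e-04). CCNB1 (chromosome 5, 69167010 to 69178245, plus strand), which lies next to CENPH on the same strand, had 246, 255 and 262 CPM and 225, 248 and 219 CPM. Its groups overlapped through SNHG5 siRNA replicate 2, and its log2 fold change of -0.14 ± 0.05 passed narrowly (adjusted p = 0.0487). Leaving out SNHG5 siRNA replicate 2 gave -0.19 (adjusted p = 5.40e-04). The call ended without each of the other 5 libraries, with adjusted p from 0.0584 to 0.219, with DESeq2's size factors (0.0553) and in DESeq2's test (0.0588). CCNA2, cyclin A2, had 347, 351 and 355 CPM and 329, 335 and 324 CPM, with -0.09 (adjusted p = 0.126) although the groups did not overlap. It passed under 6 of 17 alternatives, from -0.09 to -0.15, with adjusted p down to 0.0140.

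CDK1, the kinase all of these act on, had 209, 217 and 226 CPM and 248, 253 and 244 CPM, a rise of 0.19 ± 0.05 (adjusted p = 0.00450); with the FPKM and 1 added it had 0.09 and did not pass (0.104). The transcription factor genes of the G2/M programme rose. MYBL2, which encodes B-MYB, had 122, 125 and 110.1 CPM and 156, 166 and 153 CPM, and 0.41 ± 0.06. FOXM1 had 218, 233 and 208 CPM and 258, 259 and 269 CPM, and 0.26 ± 0.05 (adjusted p = 7.19e-04). Both were called higher without each library in turn.

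Of the genes that carry out or restrain anaphase, CDC20 fell and the others did not pass. CDC20, whose product activates the anaphase-promoting complex (chromosome 1, 43358955 to 43363203, plus strand), had 279, 294 and 266 CPM with control siRNA and 206, 229 and 202 CPM with SNHG5 siRNA. This was the largest fall of the 57 genes, -0.40 ± 0.06, or 1.32-fold (adjusted p = 1.80e-05), and -0.45 without SNHG5 siRNA replicate 2. UBE2C, the ubiquitin-conjugating enzyme of that complex, had 95.1 ± 4.97 and 89.0 ± 2.83 CPM (-0.10, adjusted p = 0.189). PTTG1, securin, had 128, 137 and 142 CPM and 126, 149.5 and 127 CPM (-0.01, adjusted p = 0.887), and its sign changed between alternatives.

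Among spindle, midzone and chromosome proteins 3 of 9 rose, 1 fell and 5 did not pass. PRC1, which bundles microtubules of the central spindle, had 269, 275 and 269 CPM and 346, 344 and 345 CPM, groups well apart, with 0.35 ± 0.05 (adjusted p = 8.56e-06). HMMR, a spindle assembly protein, had 103, 111 and 109.8 CPM and 139, 141 and 133 CPM, also 0.35 ± 0.05. NUSAP1, a microtubule-bundling protein, had 185, 186 and 188 CPM and 209.5, 211 and 211 CPM, and 0.18 ± 0.05. In GENCODE v29, 57.6% of the exonic bases of PRC1 and 62.2% of those of NUSAP1 also lie in exons of another gene on the same strand. How reads of PRC1 and NUSAP1 were assigned therefore matters to these levels.

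MKI67, the Ki-67 proliferation antigen that coats mitotic chromosomes (chromosome 10, 128096659 to 128126385, minus strand), had 858, 791 and 729 CPM with control siRNA and 690.0, 544 and 697 CPM with SNHG5 siRNA. The difference was -0.30 ± 0.08 on the log2 scale (adjusted p = 0.00375). SNHG5 siRNA replicate 2 was far the lowest, and without it the fall was smaller but still passed, at -0.19 (adjusted p = 3.46e-04). By DESeq2 its adjusted p was 0.0655, and by limma on unfiltered FPKM with 1 added 0.0858. TOP2A, the topoisomerase that untangles sister DNA, had 657, 643 and 642 CPM and 681, 636 and 651 CPM, with 0.02 ± 0.05, and groups that overlapped. ANLN, TPX2, ASPM and DLGAP5 had log2 fold changes from -0.07 to 0.10 and did not pass, and the sign of DLGAP5 changed between alternatives.

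**Figure D5:**
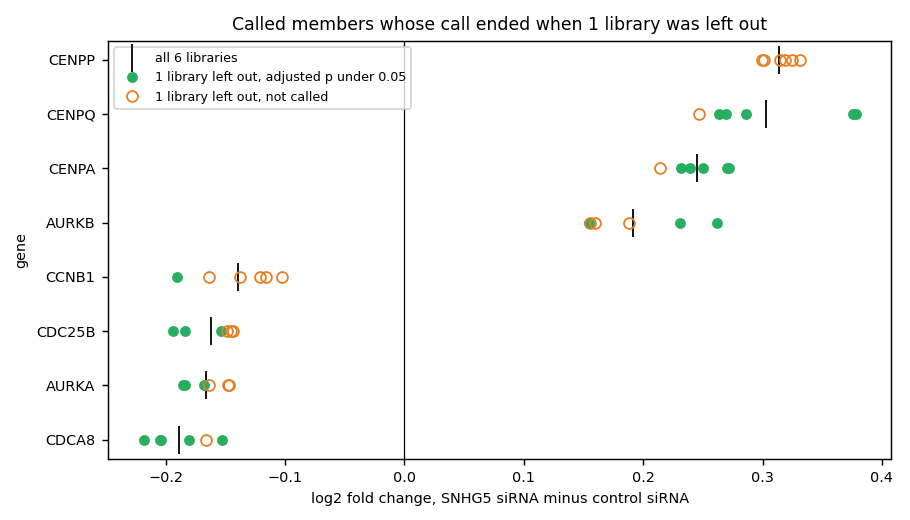
Log2 fold change (x axis) of the 8 called members (y axis) whose call ended when 1 library was left out. Bars mark all 6 libraries, filled circles a left-out library with adjusted p under 0.05 and open circles one without a call. CENPP has only open circles, and CCNB1 has 1 filled circle, at -0.19.

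By the authors' FPKM the members spanned a wide range with control siRNA. The highest were ANLN at 178 FPKM, CDC20 at 136, BUB3 at 109.4 and CCNA2 at 104, and the lowest CENPP at 0.606, NSL1 at 1.67 and MAD1L1 at 1.73. All 13 inner kinetochore genes were at or under the 20.8 FPKM of CENPA. For NSL1, CENPM and CENPK the FPKM were 0.106, 0.114 and 0.126 of the CPM per kilobase of the longest transcript, lower than in any other member. For MAD2L1, BUB3 and PMF1 they were 3.23, 2.49 and 2.24, higher than in any other member. The places of these 6 genes in the order, that of BUB3 near the top included, are therefore uncertain. Spearman's rho of the log2 fold change, across the 57 genes, was -0.406 with mean CPM, -0.199 with transcript length and -0.0651 with GC content. These genes share the same 6 libraries, and CPM is not scaled to length.

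Other genes of the same machinery, in 7 lists with 94 genes, gave 48 higher, 9 lower and 37 not called, with a median of 0.17. That was 51.1% higher and 9.57% lower, beside 20.3% and 19.9% of all genes tested. These shares of all genes are the background for each list below. At the kinetochore, 9 of 14 further factors rose and 0 fell. ZW10, part of the complex that brings dynein and MAD1 to the kinetochore, rose most of the 94, from 23.0, 22.1 and 23.4 CPM to 52.4, 53.3 and 52.1 CPM (1.21 ± 0.07, adjusted p = 6.68e-11). SKA2, of the microtubule-tracking SKA complex, rose by 0.76 ± 0.06. Of 9 other centromere genes 4 rose and 1 fell: ITGB3BP, which encodes the CCAN protein CENP-R, rose by 0.64 ± 0.08, CENPB by 0.34, and HJURP, the chaperone that loads CENP-A, fell by 0.19 on the log2 scale.

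Condensin gave 6 higher and 0 lower of 8, led by NCAPG2 (0.44 ± 0.05) and NCAPH (0.34 ± 0.06). Cohesin and its regulators gave 8 higher and 2 lower of 16; CDCA5, sororin, rose by 0.37 and ESCO2, a cohesin acetyltransferase, by 0.31, while ESPL1, separase, fell by 0.33 and the loader gene NIPBL by 0.17 on the log2 scale. Subunits and inhibitors of the anaphase-promoting complex gave 4 higher and 2 lower of 17, close to the background; ANAPC4 rose by 0.34 and ANAPC13 by 0.33, and ANAPC2 had -0.27 and ANAPC16 -0.18. Other mitotic kinases and phosphatases gave 10 higher and 1 lower of 18. ENSA, the phosphatase inhibitor that Greatwall kinase switches on, rose by 0.63 ± 0.06, and MASTL, Greatwall itself, by 0.51 ± 0.06, while NEK9 had -0.17.

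The DREAM and MuvB list, whose proteins bind the CHR and E2F elements named above, gave 7 higher and 3 lower of 12. RBL1, which encodes the pocket protein p107, rose from 51.3 ± 1.68 to 80.4 ± 4.92 CPM (0.65 ± 0.06), and LIN9 rose by 0.50 ± 0.08. E2F5, a repressive E2F, fell from 12.4 ± 1.08 to 6.33 ± 1.00 CPM (-0.96 ± 0.12, adjusted p = 3.55e-06), and LIN52 fell by 0.51 on the log2 scale.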

How the data were processed

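The authors deposited 2 tables of 6 libraries, with 0 columns of other samples. The deposited count table holds raw counts per gene name. The deposited FPKM are the authors' own values, per gene length and per library. Per the submitters' processing notes, reads were trimmed with Trimmomatic and the build was GRCh38; the aligner, counter and annotation are not given in the sources used here. Members and lists were chosen with earlier results of these data known. Names that read as dates, 27 in all, held 0.257% of counts, and 4 names were repeated; none is a member.

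Counts were scaled by TMM and 12508 names that passed filterByExpr were tested with edgeR 4.0.16 (R 4.3.3), quasi-likelihood test, 2-sided, without a replicate block. The SE is the absolute log2 fold change over the square root of F. Simulated counts with the spread of these libraries gave calls for 34 of 50 genes changed 1.25-fold, 43 of 50 changed 1.5-fold, 48 of 50 changed 2-fold and 12 of 12240 unchanged genes, over 12508 genes. A count of 3, the detection floor, is 0.136 to 0.165 CPM; it covers counting error only. Values in every library are given for up to 4 called members of each role group by absolute log2 fold change, for 2 of the highest CPM in groups with fewer than 2 calls, and for 11 fixed members; from each other list, up to 2 genes a direction. CDC25B, CDC25C, CCNA2, CENPM, CENPP, CENPQ, NUF2 and BUB1 were added after their values were seen. The symbol CENPR was found as ITGB3BP. Alternatives used DESeq2 1.42.0 and, on log2(FPKM + 1 or 0.1), limma 3.58.1. Length and GC come from the longest GENCODE v29 transcript (98.7% of tested names), coordinates from GENCODE v29 and promoters from RefSeq. Python 3.11.15, pandas 2.3.3 and matplotlib 3.10.9 were used. One marker of the blood list, and with it that list's sum, is not reported here.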

Additional observations from a re-analysis of the deposited data

How the results depend on the processing

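Over 17 alternatives the members called higher numbered 26 to 32, against 29, and those called lower 5 to 11, against 8. With 1 library left out, 26 to 30 were higher and 5 to 8 lower; the 5 came without control siRNA replicate 2 and without SNHG5 siRNA replicate 3, and the medians were 0.16 to 0.17. Upper quartile scaling moved the members' median from 0.18 to 0.13 and the share of called genes that were higher, over all genes, from 50.5% to 39.9%. Of 37 called members, 27 (24 higher, 3 lower) kept direction and call under every alternative and 29 without each library in turn. Falls in the related lists, 9 in all, were 14 with upper quartile scaling, 15 with the replicate block, 15 with the length trend removed, and 6 to 14 with 1 library left out. With the replicate block, 30 members were higher and 9 lower. The labels do not tie equal numbers, same-numbered libraries had correlations of 0.0463, 0.130 and 0.0264, and 4 of 6 correlated best with their own number. Signs changed in members not called: CENPF had -0.0273 with upper quartile scaling, -0.0206 with FPKM and 1 added (filtered or not), -0.0214 with 0.1 added and -0.0423 with the GC trend removed; TOP2A had -0.0216, -0.0215, -0.0218 and -0.0448; PTTG1 had 0.0053 with each FPKM setting. DLGAP5 had -0.00613 with FPKM and 1 added, -0.00645 with 0.1 added and -0.0208 with the GC trend removed, and PMF1 -0.0165 without control siRNA replicate 2. Of 20 members not called, 10 passed under 1 alternative or more (CENPM, CENPT, NUF2, BUB1, TTK, INCENP, CCNA2, CDC25C, TPX2 and ANLN). With 1 library left out CENPE ranged from -0.0436 to 0.0364, CENPF from -0.0371 to 0.0687, PTTG1 from -0.0952 to 0.0294 and TOP2A from -0.00762 to 0.0442. The causes were not tested.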
